A study of Mus musculus with 12 samples.

Results

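The insulin-like growth factor (IGF) system was represented by 10 genes: the ligands Igf1 and Igf2, the receptor Igf1r, the docking protein Irs1, and the binding proteins Igfbp2, Igfbp3, Igfbp4, Igfbp5, Igfbp6 and Igfbp7. These genes were chosen by their measured values in the same arrays, with every comparison below already known, so their levels and differences are given as a description. Where members are counted at the threshold of the fit of all genes, that too describes them and is no test of them. All 10 were measured, by 22 of the 22626 probe sets of the array, no filter took any of them out, and they stood among 12393 genes in the fit. RNA came from fibroblasts of Zfp423-GFP transgenic male mice aged 6 to 8 weeks on an FVB and C57BL/6 background. All 4 groups carried the transgene. Stromal vascular cells, which remain once the fat cells of the tissue are removed, were cultured from inguinal fat (under the skin) or epididymal fat (in the abdomen). They were sorted by green fluorescent protein (GFP) and grown again in DMEM/F12 with 10% fetal bovine serum, and RNA was taken from subconfluent cells before growth arrest. GFP+ and GFP- cells of each depot made 4 groups, each with 3 Affymetrix arrays of biotin-labelled cRNA. The GFP reporter splits the cells by its own level at the time of the sort, and what the cells carried after the second culture is what the arrays read. Whether the 3 arrays of a group stand for different animals or different cultures is not in the labels, so the spread between arrays, and any p-value, may reflect technical error only.

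IGF1 and IGF2 are secreted peptides that bind the tyrosine kinase receptor encoded by Igf1r, which passes the signal on through docking proteins such as IRS1. In body fluids and in the matrix around cells most of the ligand is held by binding proteins (IGFBPs), which lengthen its life and can either keep it from the receptor or deliver it there, and proteases cut them to free the ligand. In fat tissue the system is known for acting on the growth and the differentiation of preadipocytes, and stromal cells are a source of the ligand and of the binding proteins.

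The binding proteins with the widest ranges of group means were Igfbp3, Igfbp5, Igfbp2 and Igfbp4, and the 150 bases before the first start site listed for each are shown because the results turn most on these 4 genes. The sequences are from RefSeq on assembly GRCm38.p6, written 5′ to 3′ on the gene's strand and ending at the base before the start. Capitals mark a GC box (GGGCGG or CCGCCC, either strand, anywhere in the window) or the letters TATA (their own reverse complement) 20 to 40 bases before the start. Igfbp2 lies at chr1:72824330-72824479 on the plus strand, Igfbp3 at chr11:7213924-7214073 on the minus strand, Igfbp4 at chr11:99041094-99041243 on the plus strand and Igfbp5 at chr1:72874866-72875015 on the minus strand.
Igfbp2: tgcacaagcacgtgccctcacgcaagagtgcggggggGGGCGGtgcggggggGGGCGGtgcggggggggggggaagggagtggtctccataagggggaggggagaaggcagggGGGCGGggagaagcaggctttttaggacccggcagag
Igfbp3: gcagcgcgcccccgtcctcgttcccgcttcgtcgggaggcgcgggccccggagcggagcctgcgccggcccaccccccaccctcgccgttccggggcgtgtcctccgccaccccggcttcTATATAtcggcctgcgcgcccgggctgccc
Igfbp4: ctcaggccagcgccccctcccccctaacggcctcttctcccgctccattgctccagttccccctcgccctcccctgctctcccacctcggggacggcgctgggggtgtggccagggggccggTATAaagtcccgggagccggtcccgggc
Igfbp5: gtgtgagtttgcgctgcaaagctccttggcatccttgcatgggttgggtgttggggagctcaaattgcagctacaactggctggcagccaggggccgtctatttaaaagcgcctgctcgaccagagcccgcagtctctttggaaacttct
The Igfbp2 window held 3 GC boxes and no TATA match, the Igfbp3 window had 2 overlapping TATA matches and no GC box, the Igfbp4 window had 1 TATA match and no GC box, and the Igfbp5 window had neither. Of 32851 start windows in the table, 28.6% held a GC box and 5.34% held TATA at that distance. A second start listed for Igfbp2, at chr1:72825237-72825386, had neither motif in its window. A match describes the letters only. Igfbp2 and Igfbp5 are neighbours on chromosome 1, with Rpl37a and Tnp1 as the protein-coding genes on their outer sides, and Igfbp1 lies next to Igfbp3 on chromosome 11.

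Values are probe set intensities on a linear scale as deposited, and differences are on the log2(intensity + 16) scale, which understates the change of dim genes. Weakly detected means an intensity under 77.7, the level below which 30% of gene means lie. Array medians lay between 347 and 371, and no pair of arrays was identical. Zfp423, the gene whose reporter was sorted, averaged 124 ± 22.9 (SD, n = 3) in GFP+ and 57.4 ± 13.8 in GFP- arrays of inguinal fat, and 242 ± 35.1 and 29.4 ± 3.80 in those of epididymal fat. Of 12 fibroblast markers, at least 11 were above the weak level in every group, and Cd34 was the one below it outside epididymal GFP- cells. Markers of other cells differed between the groups. The summed intensity of 21 macrophage and leukocyte markers was 12319 to 14531 in inguinal GFP- arrays, against 2543 to 2820 in inguinal GFP+, 3375 to 3529 in epididymal GFP+ and 4010 to 4377 in epididymal GFP- arrays. The summed intensity of 11 markers of mesothelium, the lining of the abdominal cavity, was 45585 to 47548 in epididymal GFP- and 9808 to 10276 in epididymal GFP+ arrays, and at most 2696 in any inguinal array. With GFP, 16 of the 21 macrophage markers fell in inguinal cells and 10 of the 11 mesothelial markers fell in epididymal cells (limma), and only 6 of 21 macrophage markers were above the weak level in inguinal GFP+ cells. Upk3b, a defining mesothelial gene, read 9458.6 in epididymal GFP- cells, 600 in epididymal GFP+ cells, and 10.5 and 12.5 in the inguinal groups. The mesothelial sum of epididymal GFP+ cells came mostly from Wt1, Efemp1 and Bnc1, with means of 3764.5, 2563.6 and 1455.8. No other marker of that list had a mean above 600 there. The other lists summed to 116145 to 158713 for 12 mural markers and 166 to 483 for 7 epithelial markers. Sums were 693 to 5885 for 12 endothelial markers (highest in epididymal GFP- cells, mostly Kdr). For 8 adipocyte markers they were 759 to 6984 (lowest in epididymal GFP- cells). The adipocyte sums followed Fabp4, with means of 4912.7 and 1372.3 in inguinal GFP+ and GFP- cells and 6223.7 and 300 in epididymal ones. By their means over all arrays, 6 of these 8 markers were weakly detected. In such bulk samples fewer cells of a type and less RNA per cell cannot be told apart, and the part of these other cells in the values below was not tested.

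**Figure D1:**
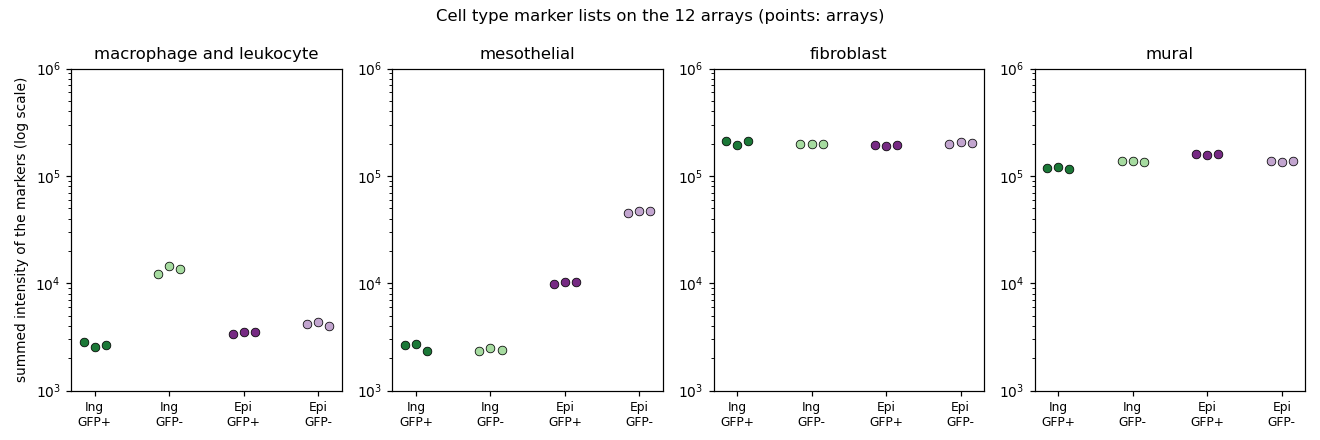
Summed intensity (log axis) of the macrophage and leukocyte, mesothelial, fibroblast and mural marker lists on each of 12 arrays, with 1 point per array and the 4 groups along the x axis. Macrophage markers were high in inguinal GFP- arrays (12319 to 14531) and mesothelial markers in epididymal GFP- arrays (45585 to 47548), while fibroblast markers lay between 191797 and 212249 on all arrays.

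Igf1, the main ligand made by stromal cells, was brightest in epididymal GFP- cells and dimmest in inguinal GFP- cells. Its brightest probe set, 1452014_a_at, read 1593, 1559 and 1737 in inguinal GFP+ arrays and 1364, 1329 and 1437 in inguinal GFP- arrays. In epididymal cells it read 3590, 3441 and 3499 in GFP+ arrays and 5656, 5439 and 5590 in GFP- arrays. No pair of groups overlapped, and the order from high to low was epididymal GFP-, epididymal GFP+, inguinal GFP+, inguinal GFP-. The GFP contrast thus had opposite signs in the depots: GFP+ minus GFP- was 0.24 ± 0.04 (SE) in inguinal and -0.66 ± 0.04 in epididymal cells. Inguinal cells were lower than epididymal cells by 1.10 among GFP+ and by 2.0 among GFP- arrays, a drop on the linear scale from 3509.7 to 1629.5 and from 5561.7 to 1376.5. The other Igf1 probe sets, 1437401_at and 1419519_at, had the same signs in all 4 comparisons, with differences in GFP- cells of -2.80 and -1.87. The mesothelial marker sum rose in the same order of the epididymal groups, from at most 10276 in GFP+ to at least 45585 in GFP- arrays.

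**Figure D2:**
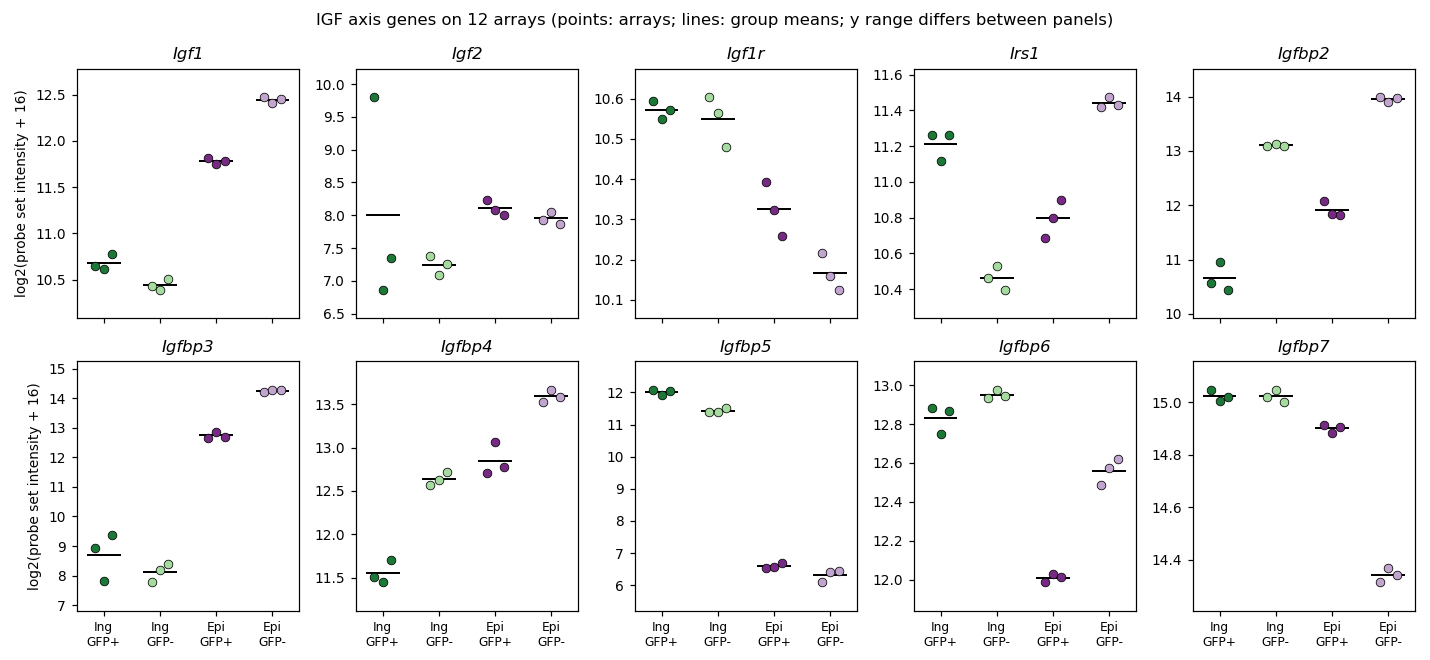
Level of the 10 IGF genes, as log2(intensity + 16) of the brightest probe set, on 12 arrays in 4 groups, with points for arrays and lines for group means. The y range differs between panels, so that Igfbp3 spans 6.13 between its highest and lowest group means and Igf1r only 0.41.

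Igf2, the ligand expressed mainly from the paternal copy and best known from fetal growth, was dim, and 1 array stood far from the rest. Probe set 1448152_at read 873, 101 and 147 in inguinal GFP+ arrays, 150, 121 and 137 in inguinal GFP-, 286, 255 and 240 in epididymal GFP+, and 229, 250 and 217 in epididymal GFP- arrays. Apart from inguinal GFP+ replicate 1, every epididymal array lay above every inguinal array. On that replicate Igf2 exceeded the mean of replicates 2 and 3 by 2.69 on the log2 scale, an excess that ranked 3 among all genes, behind Evx1 (3.86) and Defb35 (2.94). With all arrays, inguinal minus epididymal Igf2 was -0.10 ± 0.48 in GFP+ cells and -0.71 ± 0.48 in GFP- cells. The SE is pooled over all groups and carries the spread from that replicate. On the log2 scale the SD was 1.57 in inguinal GFP+ arrays, against 0.14 in inguinal and 0.09 in epididymal GFP- arrays. The arrays of these GFP- groups did not overlap. Without that replicate the GFP+ value was -1.0. The GFP contrasts, 0.76 ± 0.48 in inguinal and 0.16 ± 0.48 in epididymal cells, came from groups whose arrays overlapped, and without that replicate the inguinal value turned to -0.14. The second Igf2 probe set, 1415931_at, read between 3.70 and 19.7 on all arrays, below the weak level. H19, the neighbouring imprinted RNA, was not analysed here.

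Igf1r, the receptor for both ligands, was the most even of the 10 genes by its brightest probe set, and its probe sets disagreed on the depots. Probe set 1426565_at read 1529, 1484 and 1507 in inguinal GFP+, 1539, 1497 and 1413 in inguinal GFP-, 1329, 1266 and 1208 in epididymal GFP+, and 1174, 1128 and 1101 in epididymal GFP- arrays. By this probe set all inguinal arrays were above all epididymal ones, the inguinal groups overlapped, and inguinal minus epididymal was 0.25 ± 0.05 in GFP+ and 0.38 ± 0.05 in GFP- cells. Probe set 1452108_at ran the other way. It read 252, 302 and 385 in inguinal GFP+, 341, 348 and 389 in inguinal GFP-, 743, 630 and 625 in epididymal GFP+, and 620, 625 and 703 in epididymal GFP- arrays, with depot differences of -1.07 ± 0.12 and -0.82 ± 0.12. No direction between depots is given for Igf1r. Neither probe set gave an inguinal GFP contrast beyond the overlap of its arrays, at 0.02 ± 0.05 and -0.21 ± 0.12.

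Irs1, the docking protein that links the IGF1 and insulin receptors to PI3 kinase, reversed its GFP contrast between the depots. Its single probe set read 2444, 2204 and 2437 in inguinal GFP+ and 1395, 1463 and 1334 in inguinal GFP- arrays. In epididymal cells it read 1630, 1768 and 1897 in GFP+ and 2718, 2826 and 2744 in GFP- arrays. No groups overlapped: GFP+ cells were the higher ones in inguinal cultures (0.75 ± 0.06) and the lower ones in epididymal cultures (-0.64 ± 0.06). The depot difference changed sign with the sort in turn, at 0.42 in GFP+ and -0.98 in GFP- cells. From high to low the order was epididymal GFP-, inguinal GFP+, epididymal GFP+, inguinal GFP-.

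Igfbp2, a binding protein that can also act on cells directly, was the gene of the 10 with the largest GFP contrast, and GFP+ cells had less of it in both depots. Intensities were 1502, 1975 and 1381 in inguinal GFP+ against 8655, 8969 and 8710 in inguinal GFP- arrays. In epididymal cells they were 4284, 3663 and 3579 in GFP+ against 16210, 15216 and 16084 in GFP- arrays. Group means were 5.42-fold lower in GFP+ cells of inguinal fat and 4.12-fold lower in GFP+ cells of epididymal fat, or -2.44 ± 0.09 and -2.04 ± 0.09 on the log2 scale. Within either sort, inguinal cells were below epididymal cells, by 1.25 in GFP+ and by 0.85 in GFP- arrays, and all 4 groups were separate. The macrophage marker sum was also higher in GFP- arrays of inguinal fat (at least 12319 against at most 2820). The mesothelial marker sum was higher in GFP- arrays of epididymal fat (at least 45585 against at most 10276). Adipocyte marker sums ran the other way in both depots. They were at most 1732 and 799 in inguinal and epididymal GFP- arrays, against at least 4355 and 6467 in GFP+ arrays. The part of other cells in the Igfbp2 differences was not tested.

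Igfbp3, the main carrier of IGFs in blood and the binding protein with the widest range here, was bright in epididymal and dim in inguinal cells. It read 472, 208 and 646 in inguinal GFP+ and 205, 276 and 322 in inguinal GFP- arrays. In epididymal cells it read 6496, 7364 and 6635 in GFP+ and 18911, 19916 and 19960 in GFP- arrays. Mean intensity was 15.5-fold higher in epididymal than in inguinal GFP+ cells and 73.1-fold higher in GFP- cells, with log2 differences of -4.04 ± 0.26 and -6.13 ± 0.26 for inguinal minus epididymal. Epididymal GFP+ cells had less than epididymal GFP- cells (-1.52 ± 0.26), and all arrays of the pair were separate. In inguinal cells the GFP groups overlapped at 0.57 ± 0.26, which did not pass the threshold of the fit. The low GFP+ replicate 2 drew this value down. Without that replicate the difference was 1.02, and with array weights it was 0.74, and both passed. The mesothelial marker sum was also highest in epididymal GFP- arrays (at least 45585) and next in epididymal GFP+ arrays (at least 9808), with at most 2696 in inguinal ones. Krt19 and Krt7 were exceptions among the 11 markers. Krt19 had means of 1291.6 and 1186.3 in inguinal GFP+ and GFP- cells and of 191 and 216 in epididymal ones. Krt7 had means of 564 and 148 in inguinal GFP+ and GFP- cells and of 56.1 and 1830.2 in epididymal ones. The epididymal GFP+ sum came mostly from Wt1, Efemp1 and Bnc1, while Msln and Gpm6a had means of 181 and 129 there. In both inguinal groups Krt19 was the brightest of the 11 markers.

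Igfbp4, which as a rule holds IGFs back until the protease PAPP-A cuts it, was lower in GFP+ cells of both depots and lower in inguinal than in epididymal cells. Its brightest probe set, 1437405_a_at, read 2897, 2789 and 3325 in inguinal GFP+ and 6077, 6331 and 6746 in inguinal GFP- arrays. In epididymal cells it read 6647, 8524 and 6982 in GFP+ and 11753, 12982 and 12269 in GFP- arrays. Epididymal GFP+ and inguinal GFP- arrays overlapped, and the other neighbours in the order of levels did not. GFP+ minus GFP- was -1.09 ± 0.08 in inguinal and -0.75 ± 0.08 in epididymal cells, and inguinal minus epididymal was -1.29 ± 0.08 and -0.95 ± 0.08. All 6 Igfbp4 probe sets had these signs in all 4 comparisons, with inguinal GFP differences from -1.18 to -0.70 and epididymal ones from -1.03 to -0.43.

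**Figure D3:**
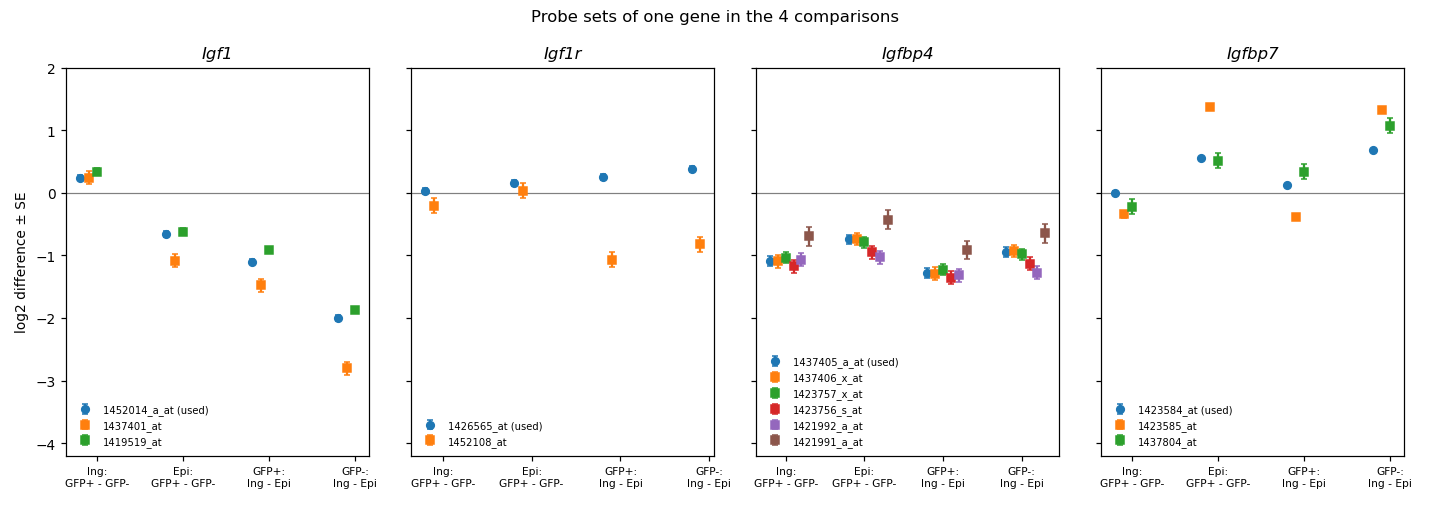
Log2 difference ± SE of each probe set of Igf1, Igf1r, Igfbp4 and Igfbp7 in the 4 comparisons on the x axis, with circles for the brightest probe set, used for the gene, and squares for the others. The 3 Igf1 and 6 Igfbp4 probe sets share their signs, while 1452108_at of Igf1r lies at -1.07 and -0.82 in the depot comparisons where 1426565_at lies at 0.25 and 0.38.

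Igfbp5, a binding protein kept largely in the matrix and on the cell surface, was the mirror image of Igfbp3 between the depots. Probe set 1452114_s_at read 4322, 3853 and 4244 in inguinal GFP+ and 2693, 2663 and 2886 in inguinal GFP- arrays. In epididymal cells it read only 76.6, 78.1 and 87.7 in GFP+ and 52.7, 68.8 and 71.7 in GFP- arrays, so that 4 of these 6 arrays were under the weak level of 77.7. Inguinal minus epididymal was 5.42 ± 0.09 among GFP+ and 5.11 ± 0.09 among GFP- cells. No linear fold is given, since the epididymal values lie around the weak level, and with the mean of both probe sets the differences were 2.85 and 2.78. In inguinal cells GFP+ arrays were above GFP- arrays without overlap (0.59 ± 0.09). The epididymal GFP difference of 0.27 ± 0.09 lies at weak levels. A second probe set, 1422313_a_at, read between 1.47 and 37.0 on all arrays, below the weak level, and tells the groups apart in none of the comparisons by its arrays.

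Thus neighbouring genes on chromosome 1 differed in opposite directions between the depots: Igfbp5 was higher in inguinal cells of either sort, and Igfbp2 was lower. They also differed in opposite directions with the sort in inguinal cells, where Igfbp5 was higher and Igfbp2 lower in GFP+ arrays. The outer neighbours Rpl37a and Tnp1 had group means of 29554 to 31451 and of 24.1 to 31.3. Igfbp1, the neighbour of Igfbp3, was near the floor of the array, with group means of 3.38 to 15.7, so the pair could not be compared.

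Igfbp6, which prefers IGF2 over IGF1, was higher in inguinal than in epididymal cells. It read 7536, 6872 and 7454 in inguinal GFP+, 7804, 8045 and 7855 in inguinal GFP-, 4048, 4159 and 4117 in epididymal GFP+, and 5732, 6077 and 6281 in epididymal GFP- arrays. No groups overlapped, and GFP+ cells were the lower ones in both depots, narrowly in inguinal (-0.12 ± 0.04) and more so in epididymal cells (-0.55 ± 0.04). Inguinal minus epididymal was 0.82 in GFP+ and 0.39 in GFP- cells.

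Igfbp7, a relative of the IGFBPs that binds IGFs weakly and is secreted into the matrix, was set apart by low values in epididymal GFP- cells. Probe set 1423584_at read 33843, 32859 and 33189 in inguinal GFP+, 33212, 33849 and 32752 in inguinal GFP-, 30802, 30215 and 30691 in epididymal GFP+, and 20375, 21157 and 20769 in epididymal GFP- arrays. The inguinal groups overlapped and the others were separate, with GFP+ minus GFP- at 0.00 ± 0.02 in inguinal and 0.56 ± 0.02 in epididymal cells. The dimmer probe set 1423585_at gave 1.37 ± 0.05 for the epididymal contrast, from 830 to 923 on the GFP- arrays and 2241 to 2445 on the GFP+ arrays, and -0.34 ± 0.05 for the inguinal one. Probe set 1437804_at gave 0.51 ± 0.12 and -0.22 ± 0.12. All 3 probe sets thus placed epididymal GFP- cells lowest. Inguinal minus epididymal in GFP+ cells had no common sign, at 0.12, -0.39 and 0.33 in that order of probe sets.

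**Figure D4:**
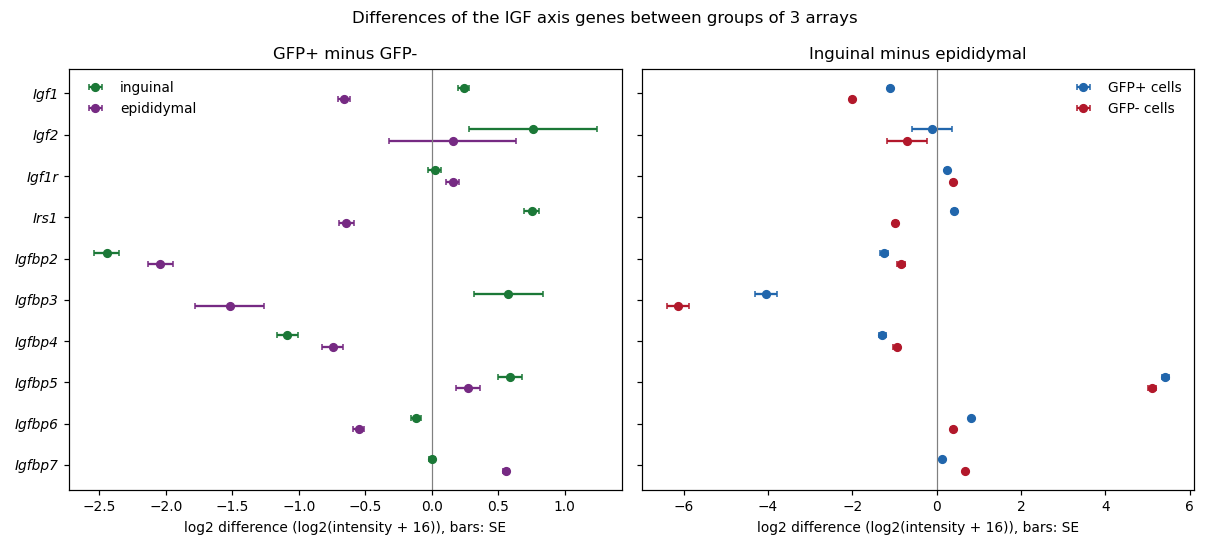
Log2 difference ± SE (x axis) of the 10 IGF genes, by their brightest probe set, for GFP+ minus GFP- in each depot (left) and inguinal minus epididymal in each sort (right), from 3 arrays per group. Igfbp2 and Igfbp4 lie below 0 for GFP in both depots, Igf1, Irs1 and Igfbp3 lie on opposite sides of 0, and Igfbp3 (-6.13 in GFP- cells) and Igfbp5 (5.42 in GFP+ cells) are the extremes between depots.

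Counted at the threshold used for all genes (limma, Benjamini-Hochberg adjusted p under 0.05), inguinal GFP+ cells were higher than GFP- cells for Igf1, Irs1 and Igfbp5 and lower for Igfbp2 and Igfbp4. That is 3 and 2 of 10 genes, beside 5.26% and 7.29% of all 12393 genes. Since the 10 were chosen on these values, nothing is read from the counts. The inguinal call for Igfbp5 was lost with the mean of probe sets (0.42). In epididymal cells GFP+ was higher for 3 (Igf1r, Igfbp5, Igfbp7) and lower for 6 (Igf1, Irs1, Igfbp2, Igfbp3, Igfbp4, Igfbp6), beside 21.5% and 20.3% of all genes. The epididymal call for Igfbp5 was lost with quantile normalization, a pseudocount of 64 and only the groups compared. It was also lost with the mean of probe sets and with some single arrays left out, as was that for Igf1r. By the brightest probe sets, inguinal cells were higher for 5 (Igf1r, Irs1, Igfbp5, Igfbp6, Igfbp7) and lower for 4 (Igf1, Igfbp2, Igfbp3, Igfbp4) among GFP+ arrays, beside 23.6% and 27.2%. Among GFP- arrays they were higher for 4 (Igf1r, Igfbp5, Igfbp6, Igfbp7) and lower for 5 (Igf1, Irs1, Igfbp2, Igfbp3, Igfbp4), beside 27.4% and 26.3%. These counts take Igf1r from 1426565_at, against the sign of its other probe set, at -1.07 and -0.82, so that with 1452108_at it would stand among the lower genes by sign. Igfbp7 in GFP+ cells has probe sets of either sign, and its call was lost with quantile normalization and with the mean of probe sets. The inguinal GFP contrast exceeded the epididymal one for 4 (Igf1, Irs1, Igfbp3, Igfbp6) and fell short of it for 3 (Igfbp2, Igfbp4, Igfbp7), beside 16.1% and 18.7%. Of these, the calls of Igfbp2 and Igfbp4 were lost with median centring (-0.34 and -0.28), without the variance trend and with some single arrays left out, and that of Igfbp4 also with the mean of probe sets. The median absolute difference of the 10 genes was 0.58, 0.60, 0.96 and 0.90 in the 4 comparisons in that order, and 0.10, 0.20, 0.25 and 0.28 over all genes. The comparisons share their arrays and are not independent of each other.

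Other genes of the pathway were taken from lists that leave out these 10 genes: receptors, further binding proteins and regulators of the ligands (21 measured), IGFBP proteases and their inhibitors (22), and signalling below the receptor (49). Of these 92 genes, 15 rose and 11 fell with GFP in inguinal cells, 29 rose and 30 fell in epididymal cells, and 66 and 33 did not pass. Between depots 33 were higher and 28 lower in inguinal GFP+ cells (35.9% and 30.4%, beside 23.6% and 27.2% of all genes). Among GFP- cells 32 were higher and 30 lower in inguinal fat (34.8% and 32.6%, beside 27.4% and 26.3%). The GFP contrast itself differed between the depots for 52 genes, with 27 inguinal contrasts above and 25 below the epididymal ones. These were 29.3% and 27.2%, beside 16.1% and 18.7% of all genes. With GFP the shares were 16.3% and 12% in inguinal cells, beside 5.26% and 7.29% of all genes. In epididymal cells they were 31.5% and 32.6%, beside 21.5% and 20.3%. By their means over all arrays, 12 of the 92 genes were weakly detected, against 3718 of all 12393 genes. These shares thus do not compare genes of like brightness, and the effect of brightness on them was not tested. The 26 inguinal calls were 17 without the variance trend of the fit. The lists were drawn up with results of these arrays known.

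**Figure D5:**
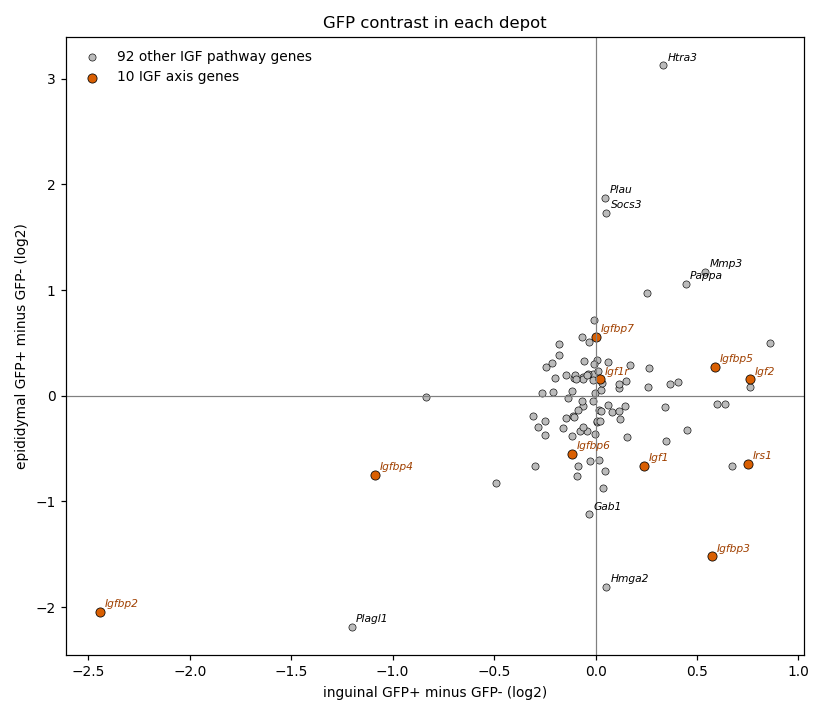
GFP+ minus GFP- (log2) in inguinal cells (x axis) against epididymal cells (y axis), with 1 point per gene, for the 10 IGF genes (orange) and 92 other pathway genes (grey). Htra3 (0.33 and 3.13) is highest and Plagl1 (-1.20 and -2.18) lowest in epididymal cells, and Igfbp2 (-2.44 and -2.04) is lowest in inguinal cells. Irs1, Igf1 and Igfbp3 lie to the lower right, above 0 in inguinal and below 0 in epididymal cells.

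Among the regulators of the ligands, 4 of 21 rose and 2 fell in inguinal GFP+ cells, and 5 rose and 7 fell in epididymal GFP+ cells. Ghr, the growth hormone receptor upstream of Igf1, had means of 6374.5 and 4799.0 in inguinal GFP+ and GFP- cells and of 3972.4 and 3626.2 in epididymal ones. It was higher in inguinal cells of both sorts, by 0.68 ± 0.04 (adjusted p = 1.88e-09, limma) and 0.40 ± 0.04 (adjusted p = 4.36e-07), whereas Igf1 was lower there. Stat5a, a transcription factor below that receptor, and Socs2, its feedback inhibitor, rose with GFP in inguinal cells, by 0.76 ± 0.17 (adjusted p = 0.0065, limma) and 0.60 ± 0.06 (adjusted p = 2.72e-06). Plagl1, an imprinted zinc-finger gene known to act on Igf2 and Igf1r, fell with GFP in both depots, by 1.20 ± 0.08 in inguinal cells, and fell by 2.18 ± 0.08 in epididymal cells (adjusted p = 3.42e-08 and 1.35e-12, limma). Its means were 221 ± 16.6 and 529 ± 2.71 in inguinal GFP+ and GFP- cells and 1437.1 ± 80.9 and 6617.5 ± 821 in epididymal ones (SD, n = 3). Epididymal GFP- cells were thus highest, as they were for Igf1, Irs1, Igfbp2, Igfbp3 and Igfbp4.

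Hmga2, an architectural protein linked to Igf2bp2 and to fat mass, fell by 1.81 ± 0.10 in epididymal GFP+ cells (adjusted p = 3.98e-10, limma) and stood at 0.05 ± 0.10 in inguinal ones. Socs3, a cytokine-induced inhibitor that also binds the IGF1 and insulin receptors, rose by 1.73 ± 0.10 in epididymal GFP+ cells (adjusted p = 6.41e-10, limma), and its inguinal value was 0.05 ± 0.10. The test of the difference between the depots passed for both, at 1.86 ± 0.14 for Hmga2 and -1.68 ± 0.14 for Socs3 (adjusted p = 3.68e-08 and 1.17e-07, limma). Igf2bp3, which binds Igf2 mRNA, was higher in inguinal cells of both sorts, by 3.12 ± 0.22 in GFP+ and 2.86 ± 0.22 in GFP- arrays (adjusted p = 8.06e-09 and 1.05e-08, limma), with epididymal means of at most 45.3, under the weak level. Its relative Igf2bp1 was higher in inguinal GFP+ cells, by 1.45 ± 0.29 (adjusted p = 0.000555, limma), also from dim values of 129 and 40.8. Igf2r, which clears IGF2 from the surroundings, was higher in inguinal GFP+ cells by 0.41 ± 0.05 (adjusted p = 3.44e-06, limma). Insr, the insulin receptor, was dim, with means of 60.6 to 152. It was lower in inguinal cells of both sorts, by 0.80 ± 0.23 and by 1.13 ± 0.23 (adjusted p = 0.00962 and 0.000607, limma). The call in GFP+ cells was lost with quantile normalization (-0.525) and without epididymal GFP+ replicate 1 (-0.58). Lrp1, a scavenger receptor that also binds IGFBP3, rose by 0.50 ± 0.03 in epididymal GFP+ cells (adjusted p = 1.50e-10, limma). Kazald1, a distant relative of the IGFBPs, rose there by 0.72 ± 0.13 (adjusted p = 0.000263, limma).

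Of the proteases and inhibitors, 7 of 22 rose and 3 fell in inguinal GFP+ cells (31.8% and 13.6%, beside 5.26% and 7.29% of all genes). In epididymal GFP+ cells 8 rose and 6 fell (36.4% and 27.3%, beside 21.5% and 20.3%). Pappa, the protease of IGFBP4, rose with GFP in both depots, where Igfbp4 was lower. Its means were 4641.5 ± 246 and 3405.4 ± 64 in inguinal GFP+ and GFP- cells and 4180.8 ± 117 and 1994.0 ± 53.2 in epididymal ones (SD, n = 3). The rise was 0.44 ± 0.04 in inguinal and 1.06 ± 0.04 in epididymal cells (adjusted p = 1.03e-06 and 2.13e-12, limma). Htra3, a secreted serine protease of a family that cuts IGFBPs, had means of 727 and 575 in inguinal GFP+ and GFP- cells and 702 in epididymal GFP+ cells, and only 66.2 in epididymal GFP- cells, under the weak level. It rose by 3.13 ± 0.08 in epididymal GFP+ cells (adjusted p = 2.37e-14, limma) and by 0.33 ± 0.08 in inguinal ones (adjusted p = 0.0107, limma). Plau, the urokinase that makes plasmin, stood at 3427.4 ± 184 in epididymal GFP+ cells and at 926 to 984 in the other groups, a rise of 1.87 ± 0.07 in the epididymal contrast (adjusted p = 2.25e-12, limma). Mmp3, a stromelysin, rose in both depots, by 0.54 ± 0.16 and 1.17 ± 0.16 (adjusted p = 0.0348 and 1.35e-05, limma). Plat, the tissue plasminogen activator, also rose in both, by 0.26 ± 0.07 and 0.27 ± 0.07 (adjusted p = 0.0137 and 0.00328, limma).

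Timp3, an inhibitor of metalloproteases kept in the matrix, fell with GFP in both depots, by 0.49 ± 0.02 and by 0.83 ± 0.02 (adjusted p = 4.39e-10 and 3.44e-14, limma). Mmp14, a membrane-bound metalloprotease, fell by 0.16 ± 0.03 and by 0.31 ± 0.03 (adjusted p = 0.000749 and 1.29e-07, limma). Mmp2, a gelatinase that Mmp14 activates, had GFP contrasts of -0.14 ± 0.05 and -0.02 ± 0.05, which did not pass, and was lower in inguinal cells of both sorts, by 0.97 and by 0.85 (adjusted p = 3.30e-10 and 5.87e-10, limma).

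Below the receptor, 4 of 49 genes rose and 6 fell in inguinal GFP+ cells (8.16% and 12.2%, beside 5.26% and 7.29% of all genes). In epididymal GFP+ cells 16 rose and 17 fell (32.7% and 34.7%, beside 21.5% and 20.3%). Irs2, the relative of Irs1, had means of 190 and 185 in inguinal GFP+ and GFP- cells and 338 and 631 in epididymal ones. It fell with GFP in epididymal cells by 0.87 ± 0.11 (adjusted p = 4.51e-06, limma), as Irs1 was lower there, and its inguinal contrast was 0.04 ± 0.11 where that of Irs1 was 0.75. Gab1, a docking protein, and Grb10, an imprinted adaptor that restrains the IGF1 and insulin receptors, fell in epididymal GFP+ cells by 1.12 ± 0.07 and by 0.76 ± 0.03 (adjusted p = 5.99e-10 and 1.59e-12, limma). Grb14, its close relative, rose with GFP in both depots, by 0.86 ± 0.04 and 0.50 ± 0.04 (adjusted p = 9.26e-10 and 3.62e-08, limma), and was higher in inguinal cells of both sorts, by 1.45 and 1.09 (adjusted p = 2.14e-13 and 1.37e-12, limma). Pik3r1, the regulatory subunit of PI3 kinase, rose with GFP by 0.25 ± 0.07 and 0.97 ± 0.07 (adjusted p = 0.0163 and 3.38e-09, limma). Foxo1, the transcription factor that this signal keeps out of the nucleus, fell by 0.30 ± 0.06 and by 0.66 ± 0.06 (adjusted p = 0.00397 and 2.22e-07, limma). With the mean of all its probe sets, the inguinal Foxo1 value was -0.13 and did not pass.

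Dok1, a docking protein that dampens receptor kinases, was higher in inguinal cells of both sorts, by 1.37 ± 0.05 and 1.59 ± 0.05 (adjusted p = 1.55e-12 and 6.00e-14, limma). Sos2, an exchange factor for Ras, was lower there, by 1.02 ± 0.07 and by 1.01 ± 0.07 (adjusted p = 9.68e-09 and 5.22e-09, limma). Trib3, which can bind and hold back AKT, was higher in inguinal GFP- cells by 1.01 ± 0.06 (adjusted p = 8.12e-10, limma). Sesn1, a stress-induced inhibitor of mTORC1, and Inppl1, a phosphatase of PI3 kinase products, fell in epididymal GFP+ cells by 0.61 ± 0.08 and by 0.61 ± 0.04 (adjusted p = 1.84e-05 and 3.54e-09, limma). Nras, a Ras protein, fell with GFP in both depots, by 0.25 ± 0.05 and by 0.37 ± 0.05 (adjusted p = 0.00238 and 9.01e-06, limma). The epididymal contrasts of all these genes include the GFP- arrays with mesothelial marker sums of 45585 to 47548.

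The genes whose levels ran closest to a member over the 12 arrays are given as a description, with Pearson's r over arrays that fall into 4 groups. For Igf1 they were Pcyox1 (r = 0.9968), Bnc1 (r = 0.9956) and Ldhb (r = 0.9955). Bnc1 is one of the 11 mesothelial markers. For Igfbp3 they were Cpt1a (r = 0.9937), Zfp281 (r = 0.9937) and Kat2b (r = 0.9922). For Igfbp5 they were Tbx15 (r = 0.9973), a T-box transcription factor, Gzmd (r = 0.9944) and Dkk2 (r = 0.9942), a secreted Wnt inhibitor, all dim or near the floor in epididymal cells (means of 90.3 and 87.7, 24.2 and 9.02, and 21.2 and 21.9 in GFP+ and GFP-). For Igf2 they were Cep112 (r = 0.8697), Fbxo36 (r = 0.861) and Slc52a3 (r = 0.839), and these values include the high inguinal GFP+ array.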

How the data were processed

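The values are probe set intensities of 12 Affymetrix arrays in the series' deposited value table, on a linear scale. How the authors computed the intensity from the scans (signal algorithm, background, scaling, software) is not given in the sources used here. No normalization was added, since array medians were alike. Of 22626 probe sets, the platform annotation gave 20380 a single gene symbol, 691 several and 1555 none. Only the first kind was used, with symbols updated through the RefSeq table of GRCm38.p6 (16 had no current match). The deposited intensities were turned into log2(intensity + 16). Each gene was read by its brightest probe set over all arrays, which gave 12393 genes. The members' values are also given for every probe set.

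All 12 arrays in 4 groups entered a limma fit (version 3.58.1, R 4.3.3, lmFit and eBayes with a variance trend, no replicate block), with Benjamini-Hochberg adjustment over all genes at 0.05. The fit was tested on simulated data. The members and the gene lists were chosen with earlier results of these data known. Named genes were the 10 members and, of the 3 pathway lists, up to 3 called genes per list and comparison with the smallest adjusted p, every called gene with an absolute log2 difference of at least 1, and Igf2r, Insr, Irs2 and Igfbp1. The genes most like Igf1, Igf2 and the 2 other members of widest range were the 3 non-members with the highest correlation. The marker lists were macrophage and leukocyte, mesothelial, fibroblast, mural, endothelial, adipocyte and epithelial. Same-numbered arrays of different groups did not deviate together (r from -0.129 to 0.117 in 18 pairs). The labels do not say whether equal numbers pair samples, and with 3 arrays per group this check cannot decide it. Alternatives were median centring, quantile normalization, the replicate block, pseudocounts of 64 and 1, no genes in the lowest 30% of means, a fit of only the groups compared, array weights, no variance trend, averaged probe sets, adjusted p under 0.01, and single arrays left out. The number of arrays limits the precision. Scanner files were not analysed here.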

Additional observations from a re-analysis of the deposited data

Results flagged for a closer look

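The GFP contrast (GFP+ minus GFP-, log2) differed between the depots for the genes below, by the interaction term of the limma fit. Values are the inguinal contrast minus the epididymal one. For members they are a description, since these genes were chosen with the contrasts known. Igf1 had 0.9017 and Irs1 had 1.3942, each above 0 in inguinal and below 0 in epididymal cells. Igfbp3 had 2.0945 and Igfbp6 had 0.4334. Igfbp2 had -0.4004 and Igfbp4 had -0.3405, both lower in GFP+ cells of either depot. These calls were lost with median centring, without the variance trend and with some single arrays left out, and that of Igfbp4 also with the mean of probe sets. Igfbp7 had -0.5564. Among the other pathway genes, the docking and adaptor proteins Gab1, Grb10 and Irs2 had 1.0893, 0.6648 and 0.9107, and the phosphatase Inppl1 had 0.6257. The ligand regulators Hmga2, Igf2bp1 and Igf2r had 1.8604, 1.3331 and 0.2601. Values below 0, for a larger rise in epididymal GFP+ cells, were found for the proteases Htra3 (-2.7962), Plau (-1.825) and Pappa (-0.6182), for Socs3 (-1.6782) and for Lrp1 (-0.5365). Igf2bp1 was weakly detected in epididymal cells, and its call was lost without the variance trend (adjusted p = 0.0503, limma). In all of these the epididymal contrast includes the GFP- group with mesothelial marker sums of 45585 to 47548, and the part of these cells in the differences was not tested.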

How the results depend on the processing

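Of 83 pairs of named pathway gene and comparison, 16 changed side of the threshold or direction under some alternative. The pathway genes called with GFP in inguinal cells, 26 in the main fit, were 17 without the variance trend and 14 at an adjusted p under 0.01. Leaving out 1 array gave 18 to 26 there, 54 to 59 in the epididymal contrast, 55 to 62 and 58 to 63 between depots in GFP+ and GFP- cells, and 48 to 52 for the difference between depots. For members these ranges were 5 to 7, 8 to 9, 9 to 10, 9 to 10 and 5 to 8. With the replicate block the pathway counts were 25, 59, 60, 61 and 52, and those of the members 5, 9, 9, 9 and 7. The block called the pathway genes in nearly the main numbers of 26, 59, 61, 62 and 52, and 5 of 12 arrays correlated best with their own number. With the mean of all probe sets, Igf1r turned to -0.41 and -0.22 between depots in GFP+ and GFP- cells, and Insr turned to -0.13 in the inguinal and -0.13 in the interaction contrast. Without 1 array, values near 0 turned sign. Insr then ranged from -0.0061 (without GFP+ replicate 2) to 0.28 in inguinal and from -0.44 to 0.039 (without GFP+ replicate 2) in epididymal cells. In inguinal cells Irs2 ranged from -0.038 to 0.13 (-0.0014 without GFP+ replicate 2, -0.038 without GFP- replicate 1) and Igfbp1 from -0.042 to 0.13 (-0.042 without GFP+ replicate 3, -0.0045 without GFP- replicate 3). The interaction values of Igfbp2 and Igfbp4 lost their call under several of the alternatives, among them median centring (-0.34 and -0.28) and no variance trend. Igf2 in the inguinal GFP contrast turned to -0.14 without inguinal GFP+ replicate 1 and was called without replicate 2 (1.33). It was called in the depot contrast of GFP+ cells without replicate 1 (-1.0). In the depot contrast of GFP- cells (-0.71) it was called without that replicate and with only the groups compared. Weakly detected genes and the number of arrays limit the precision, and other causes of these changes were not tested.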
